A study of Homo sapiens with 21 samples.

Results

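The mevalonate arm of cholesterol synthesis is the run of enzymes that leads from acetyl-CoA to squalene. Its members were taken as a list of 9 gene symbols, ACAT2, HMGCS1, MVK, PMVK, MVD, IDI1, FDPS, GGPS1 and FDFT1, which were matched to Ensembl gene IDs with the version removed. All 9 members had a row among the 37637 features of the deposited count table, and all 9 passed the filter on low counts. RNA of HepG2 cells was sequenced after exposure to caffeine, with 3 libraries at each of 7 doses and 21 libraries in all. HepG2 is an established cell line grown from a human liver tumour. The doses were 0, 0.01, 0.1, 1, 10, 100 and 1000 µM, each given for 6 h. Every group, the untreated one included, was moved from medium with fetal bovine serum into fresh DMEM without serum when the exposure began, and the stock of caffeine was made in the same medium. The series text names a different compound for the control group, whereas its 3 samples are labelled as untreated, at 0 µM of caffeine, and these labels were used. The series text calls the 3 libraries of a group biological replicates and gives no more on their cultures, so the p-values measure the spread between these libraries of one cell line.

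The early steps of the arm build HMG-CoA from acetyl-CoA, mevalonate is then phosphorylated and decarboxylated to isopentenyl diphosphate, and isoprene units are joined into farnesyl diphosphate. Farnesyl diphosphate is a branch point, since squalene synthase commits it to sterols while other enzymes use it for geranylgeranyl diphosphate, dolichol, ubiquinone, heme A and lipid anchors on proteins. In liver cells most genes of the arm are textbook targets of SREBP2, a transcription factor held in the endoplasmic reticulum when sterols are plentiful and released to the nucleus when they are scarce. In promoters of such genes SREBP2 is known to act together with NF-Y, which binds CCAAT boxes, and with Sp1, which binds GC boxes.

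Library totals ran from 28043623 to 40827833 counts, and a count of 0 allows up to 3 counts, or 0.0735 to 0.107 CPM depending on the library. CPM divides each gene's count by the TMM-adjusted size of its library, and an SD is over the 3 libraries of a dose. Transcripts encoded by mitochondrial DNA took 4.95% to 14.2% of the counts. The library at 0.01 µM, replicate 1, stood apart most from its own group, with a mean correlation of log2 CPM of 0.969 with the other libraries of its dose, and its values are named below where they touch a result. At 1 µM, replicates 1 and 3 came next, each with a mean correlation of 0.974. These 2 libraries also had the lowest and the highest mitochondrial share, 4.95% and 14.2% in turn. The label of the cells was checked against 6 hepatocyte markers, all of which were present: albumin (ALB) stood at 5874 ± 678 CPM, AFP at 3497 ± 248, TF at 3542 ± 199, HNF4A at 327 ± 17.3, TTR at 104 ± 17.7 and FGB at 56.8 ± 5.12 CPM without caffeine. Of 6 markers of other cell types, the leukocyte genes PTPRC and CD3E had 0 to 1 counts, the endothelial gene VWF 0 to 5, and the fibroblast genes COL1A1 0 to 6 and COL3A1 0 to 1 counts per library, and PECAM1 was not analysed here. At 1000 µM, 2 of the 6 hepatocyte markers fell, AFP to 2163 ± 184 and FGB to 45.2 ± 2.73 CPM, where 41.2% of all genes tested passed and 20.6% were lower. AFP stood at the same level at 10 µM, 2163 ± 97.8 CPM, where 22% of all genes passed and HNF4A rose by 0.22 on the log2 scale. The part of these markers in the members' values was not tested.

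Promoters of the members are shown because the arm is known for shared control through these boxes. RefSeq's promoter table (GRCh38.p14) held 7 of the 9 members with 12 starts, and ACAT2 and FDFT1 had no entry. Within the 250 bases before each start, 3 motifs were searched on both strands: the NF-Y box with the letters CCAAT, the Sp1 box with the letters GGGCGG, and the core of the sterol regulatory element with the letters CACNCCAC. CCAAT was found for 6 of the 7 members and at 7 of 12 starts, against 32% of 35116 promoters of the same length. GGGCGG was found for 7 of 7 members and at 11 of 12 starts, against 42.6% of those promoters. CACNCCAC was found for 1 of 7 members, against 4.87% of those promoters. A member with several starts has more than 1 chance to hold a motif, and a match says only that the letters are there. The stretches below lie before the start and outside annotated exons, are written 5′ to 3′ on the gene's strand, and carry matches in capitals. A box on the opposite strand reads as its reverse complement, which is ATTGG for the NF-Y box and CCGCCC for the Sp1 box.
HMGCS1, chr5:43313513-43313662, minus strand: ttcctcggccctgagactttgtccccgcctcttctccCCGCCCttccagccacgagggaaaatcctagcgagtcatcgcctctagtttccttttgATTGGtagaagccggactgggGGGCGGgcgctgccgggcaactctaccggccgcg
MVD, chr16:88663162-88663297, minus strand: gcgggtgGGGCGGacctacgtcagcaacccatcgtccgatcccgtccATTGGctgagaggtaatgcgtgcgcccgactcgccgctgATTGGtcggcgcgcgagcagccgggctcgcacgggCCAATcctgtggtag
IDI1, chr10:1049171-1049369, minus strand: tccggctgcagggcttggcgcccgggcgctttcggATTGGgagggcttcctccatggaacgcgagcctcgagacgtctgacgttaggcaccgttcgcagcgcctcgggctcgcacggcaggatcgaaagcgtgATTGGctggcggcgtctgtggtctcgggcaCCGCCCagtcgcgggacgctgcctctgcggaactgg
FDPS, chr1:155308616-155308747, plus strand: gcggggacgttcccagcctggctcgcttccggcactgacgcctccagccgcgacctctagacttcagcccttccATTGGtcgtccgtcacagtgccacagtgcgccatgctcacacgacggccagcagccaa
The stretch of FDPS ends inside another CCAAT, which is left in lower case, and the window holds a further ATTGG past it. MVK had 5 CCAAT matches, the most at any 1 start, and its whole window is annotated as exon of MVK or of MMAB, the gene that faces it on the opposite strand, so the matches are shown with 9 bases on either side.
MVK, match at chr12:109573584-109573588, plus strand: tcaatttttATTGGttcgcagtt
MVK, match at chr12:109573637-109573641, plus strand: ttgtttcccATTGGtttaacgga
MVK, match at chr12:109573700-109573704, plus strand: acctattgaCCAATgttcaagcc
MVK, match at chr12:109573715-109573719, plus strand: ttcaagcctATTGGtaaaggtac
MVK, match at chr12:109573748-109573752, plus strand: cgcgctctgATTGGctggcctga
The match to the sterol element core lies before the third start of IDI1, and the capitals give the reverse complement of CACNCCAC.
IDI1, match at chr10:1048994-1049001, minus strand: ccgggcgatGTGGCGTGgactggcgc
PMVK had GGGCGG and no CCAAT in its window, and HMGCS1 and GGPS1 had CCAAT at the first of 2 and at the second of 3 starts. At the third start of IDI1, 2 of the 3 CCAAT matches overlap each other on opposite strands.

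**Figure D1:**
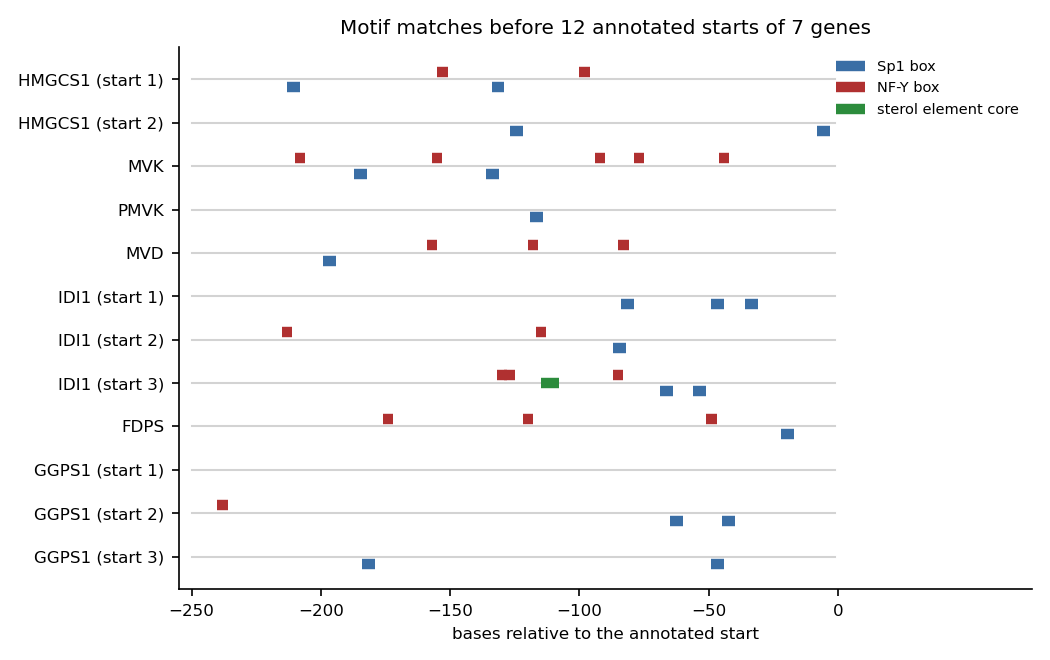
Positions of the 3 searched motifs in the 250 bases before each of 12 RefSeq starts of 7 members, with distance from the start in bases on the horizontal axis and 1 row per start. CCAAT matches (NF-Y box) are seen at 7 of 12 rows, GGGCGG (Sp1 box) at 11 of 12 and the sterol element core at 1.

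Levels in untreated cells were compared between genes per kb of exon, taken as the union of a gene's exons in GENCODE v29. FDPS, farnesyl diphosphate synthase, stood highest at 54.4 ± 1.19 CPM per kb (SD, n = 3), followed by ACAT2, the cytosolic thiolase that opens the arm, at 52.0 ± 5.50 CPM per kb. The level of FDFT1, squalene synthase, was 48.4 ± 1.98 CPM per kb. The 3 libraries of FDPS spanned 53.5 to 55.7, those of ACAT2 48.3 to 58.3 and those of FDFT1 46.2 to 50.0, so that neighbours in the order overlapped between FDPS and ACAT2 and between ACAT2 and FDFT1. IDI1, isopentenyl diphosphate isomerase, stood at 28.9 ± 3.84 and HMGCS1, cytosolic HMG-CoA synthase, at 25.1 ± 2.21 CPM per kb, again with overlapping libraries. MVD, which decarboxylates mevalonate diphosphate, stood at 21.9 ± 1.01 and PMVK, phosphomevalonate kinase, at 20.1 ± 3.06 CPM per kb, and the libraries of MVD overlapped those of both HMGCS1 and PMVK. MVK, mevalonate kinase, stood clear of its neighbours at 9.36 ± 0.608 CPM per kb, and GGPS1, geranylgeranyl diphosphate synthase, was lowest at 3.37 ± 0.703 CPM per kb. At 1000 µM the levels per kb were 35.6 ± 3.37 for FDPS, 33.4 ± 5.09 for ACAT2, 28.4 ± 2.36 for FDFT1 and 3.41 ± 0.337 for MVK. By this length, MVK and GGPS1 were thus the least abundant members, and the remaining 7 fell into 2 tiers. The high tier held FDPS, ACAT2 and FDFT1, and the middle one IDI1, HMGCS1, MVD and PMVK. The order and the tiers depend on the length used. MVK had 60.6 CPM and an exon union of 6.48 kb, but a median transcript length of 1509 bases. PMVK had 25.7 CPM and 1280 bases by either length, so by transcript length MVK would stand above PMVK.

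**Figure D2:**
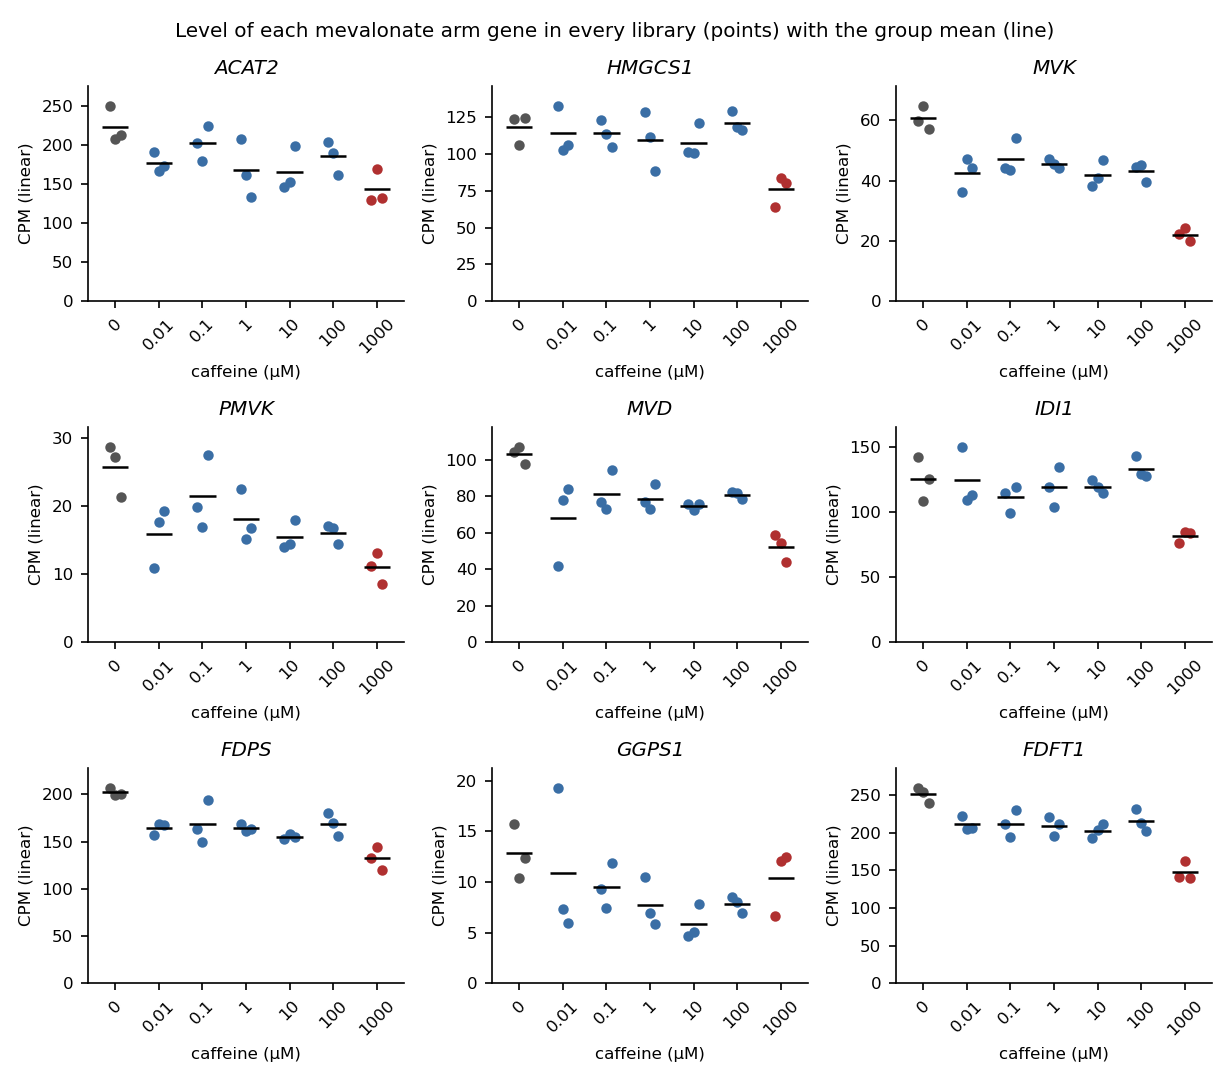
CPM of each of the 9 members in each library, by dose, with a panel and its own vertical axis per gene; points are libraries and bars are group means. In 8 panels all 3 libraries at 1000 µM lie below all 3 untreated libraries, and the GGPS1 panel is the one where they overlap.

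The first question was how the arm responded to the highest dose. At 1000 µM, 8 of 9 members fell and none rose by edgeR's quasi-likelihood test after Benjamini-Hochberg adjustment over 17468 genes at a threshold of 0.05, while GGPS1 did not pass. Over all genes tested, 41.2% passed at this dose in either direction and 20.6% were lower. The median log2 fold change of the members was -0.64, against -0.03 over all genes tested. All 3 libraries lay below all 3 untreated libraries for the same 8 members, a pattern that 27.3% of all genes tested showed. Summed over the members, the level went from 1124 ± 60.0 to 678 ± 61.1 CPM (SD, n = 3). In bulk RNA, fewer cells of a kind and less RNA per cell cannot be told apart. The members' falls were spread over a range, from -0.61 for FDPS to -1.45 for MVK on the log2 scale.

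ACAT2 (ENSG00000120437.8, chr6:159760328-159779055, plus strand) joins acetyl-CoA units to acetoacetyl-CoA in the cytosol. Its level was 251, 208 and 213 CPM in the untreated libraries and 130.0, 169 and 132 CPM at 1000 µM. The top-dose libraries were all lower than the lowest untreated one. ACAT2 changed by -0.64 ± 0.16 on the log2 scale (SE), with an adjusted p of 0.0037. HMGCS1 (ENSG00000112972.15, chr5:43289395-43313512, minus strand) adds a further acetyl unit to give HMG-CoA. Its level was 124, 106 and 125 CPM without caffeine and 63.9, 83.5 and 80.2 CPM at 1000 µM, again without overlap. HMGCS1 changed by -0.64 ± 0.14, with an adjusted p of 0.0014, so that the opening pair of enzymes had nearly the same point value, and the difference between them was not tested.

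MVK (ENSG00000110921.14, chr12:109573255-109598117, plus strand) phosphorylates mevalonate and had the largest fall of the 9 members. Its level was 59.8, 64.9 and 57.1 CPM in the untreated libraries and 22.3, 24.2 and 19.8 CPM at 1000 µM. The gap between the lowest untreated library and the highest library at 1000 µM was wider than the spread within either group. MVK changed by -1.45 ± 0.12 on the log2 scale, 2.74 times lower or 63.5% lower, with an adjusted p of 1e-07. Its log2 fold change lay at the 2.56 percentile of all genes tested at this dose. PMVK (ENSG00000163344.6, chr1:154924734-154936991, minus strand) adds the second phosphate. Its level was 28.7, 27.2 and 21.3 CPM without caffeine and 11.2, 13.2 and 8.59 CPM at 1000 µM, a change of -1.22 ± 0.22 with an adjusted p of 0.00032. MVD (ENSG00000167508.12, chr16:88651935-88663161, minus strand) makes isopentenyl diphosphate, the building block of all later steps. Its level was 105, 107 and 98.0 CPM without caffeine and 59.1, 54.6 and 43.8 CPM at 1000 µM, a change of -0.98 ± 0.18 with an adjusted p of 0.00036. The mevalonate-handling genes MVK, PMVK and MVD therefore held the 3 largest falls of the arm in the counts as deposited.

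IDI1 (ENSG00000067064.11, chr10:1039152-1049170, minus strand) converts isopentenyl to dimethylallyl diphosphate. Its level was 142, 109 and 126 CPM in the untreated libraries and 76.3, 84.9 and 83.8 CPM at 1000 µM. The groups did not overlap, and the top-dose libraries lay close together. IDI1 changed by -0.62 ± 0.13, with an adjusted p of 0.00088. FDPS (ENSG00000160752.14, chr1:155308748-155320666, plus strand) condenses these units to farnesyl diphosphate. Its level was 207, 199 and 201 CPM without caffeine and 133, 145 and 119.5 CPM at 1000 µM, a change of -0.61 ± 0.09 with an adjusted p of 6.4e-05. FDFT1 (ENSG00000079459.13, chr8:11795573-11839309, plus strand) joins farnesyl diphosphate into squalene and closes the arm. Its level was 260.2, 255 and 240.2 CPM without caffeine and 142, 162 and 140.3 CPM at 1000 µM, a change of -0.77 ± 0.09 with an adjusted p of 3.5e-06. After MVK, FDFT1 and FDPS had the smallest p-values of the arm, although they fell by less than PMVK and MVD.

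GGPS1 (ENSG00000152904.11, chr1:235327350-235344532, plus strand) draws farnesyl diphosphate away from sterols to make the geranylgeranyl group of small GTPases, and it was the member that did not fall at 1000 µM by the test. Its level was 15.7, 10.4 and 12.4 CPM in the untreated libraries and 6.69, 12.04 and 12.5 CPM at 1000 µM. The groups overlapped, since 2 of the 3 top-dose libraries lay within the untreated range. The log2 difference was -0.30 ± 0.36, with a 95% interval from -1.05 to 0.45 and an adjusted p of 0.52, an interval that holds a fall as large as that of MVD and also no change. Its low level and wide spread between libraries limit what could be seen, and a difference from the other members was not tested.

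**Figure D3:**
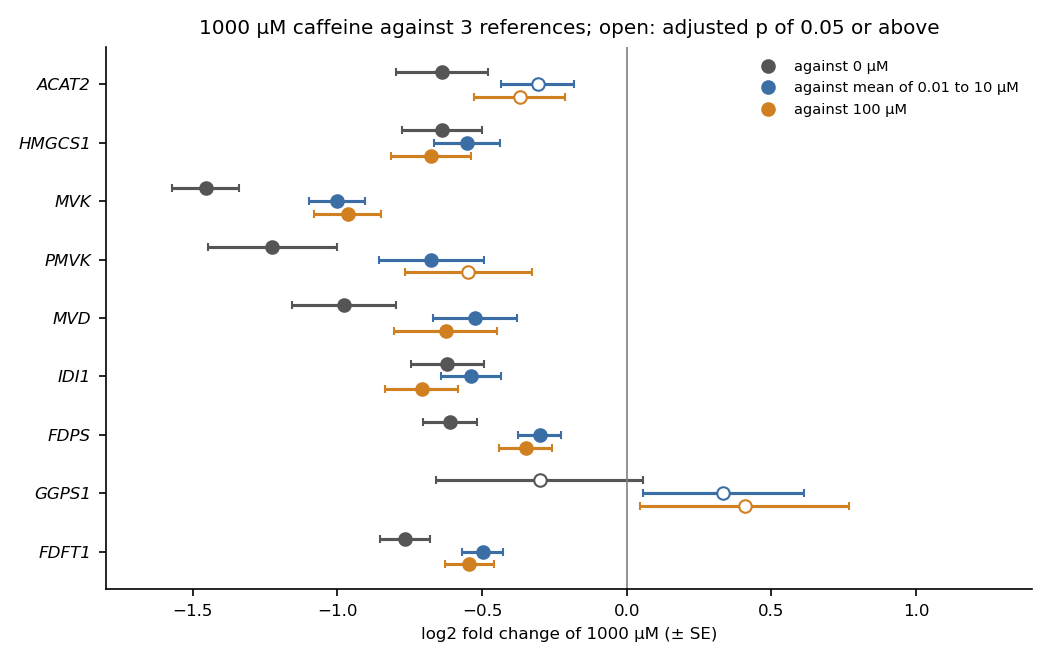
Log2 fold change of each member at 1000 µM against 0 µM, against the mean of 0.01, 0.1, 1 and 10 µM and against 100 µM, with SE as bars; filled points passed the test. Filled points are seen for 8 members against 0 µM, 7 against the mean of the lower doses and 6 against 100 µM, and the GGPS1 points are open.

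The dose series was examined next, with the reminder that the 6 comparisons with 0 µM share the same 3 untreated libraries. At 0.01 µM, 1 of 9 members fell, MVK, where 4.95% of all genes tested passed and 2.08% were lower. DESeq2 called 5 members there, and 2193 of 13808 genes over all. At 0.1 µM, edgeR's test called 0 members and 0% of all genes, and 3 members and 15.2% of all genes had an unadjusted p under 0.05. DESeq2 called 0 members there, and 528 of 15148 genes over all. At 1 µM, edgeR's test again called 0 members and 0% of all genes, and 6 members and 22.8% of all genes had an unadjusted p under 0.05. DESeq2 called 3 members there, and 1410 of 13138 genes over all. Replicates 1 and 3 of this dose differed by a chi-square of 186 per gene, the most of any replicate pair. At 10 µM, 5 members fell (MVK, PMVK, FDPS, GGPS1 and FDFT1), where 22% of all genes tested passed and 10.7% were lower. DESeq2 called 7 members there, and 4394 of 15818 genes over all. With edgeR on the 2 groups alone 7 members were called, and 5325 of 16298 genes over all. At 100 µM, 1 member fell, MVK, where 6.02% passed and 3.27% were lower. DESeq2 called 3 members there, and 2079 of 13808 genes over all. With edgeR on the 2 groups alone 6 members were called, and 4015 of 16230 genes over all. No member rose at any dose, and below 1000 µM the number of members called by edgeR was highest at 10 µM. The calls below 1000 µM depended on single libraries: at 0.01 µM none was left without untreated replicate 1 or 2 or without 0.01 µM replicate 1 or 2, at 10 µM 2 were left without untreated replicate 1 or 2 or without 10 µM replicate 1 or 2, and at 100 µM none was left without untreated replicate 1 or 2 or any of the 100 µM libraries.

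Whether or not they passed the test, all 9 members had a log2 difference below 0 at 0.01, 0.1, 1 and 10 µM, and 7 of 9 did at 100 µM. Their median log2 difference was -0.30, -0.26, -0.39, -0.43 and -0.27 at 0.01, 0.1, 1, 10 and 100 µM in turn, while that of all genes tested stayed between -0.03 and 0 at these doses. These medians share the untreated libraries, so they are not separate pieces of evidence. The summed level of the members was 1124 ± 60.0 CPM without caffeine, 929 ± 30.5, 969 ± 91.8, 920.1 ± 70.5, 889.5 ± 52.5 and 973 ± 69.6 CPM from 0.01 to 100 µM in order of dose, and 678 ± 61.1 CPM at 1000 µM (SD, n = 3). The sum thus stood highest without caffeine, held a middle level without order over the 5 lower doses, and was lowest at 1000 µM. All 3 libraries of a dose lay below all 3 untreated libraries for 6, 4, 4, 7 and 7 members at 0.01, 0.1, 1, 10 and 100 µM. Over all genes tested, 16.3%, 12.4%, 12.5%, 23.4% and 22% were separated in this way at the same doses.

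**Figure D4:**
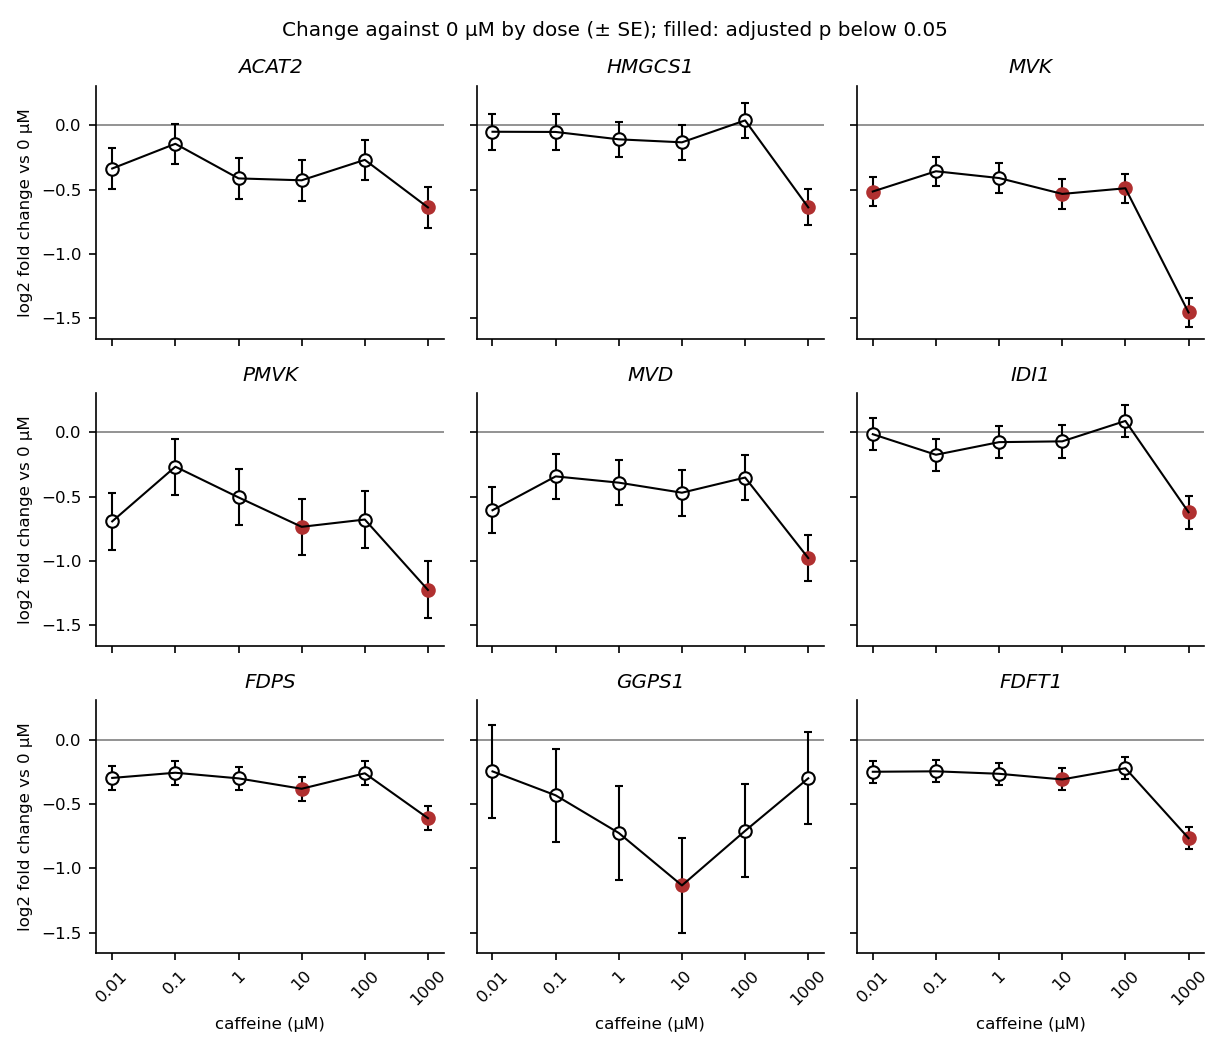
Log2 fold change against 0 µM at each dose, 1 panel per member, with SE as bars, evenly spaced dose steps on the horizontal axis and filled points where the test passed. In 8 panels the lowest point is at 1000 µM, and in the GGPS1 panel it is at 10 µM.

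MVK showed this course in its single libraries. They held 36.1, 47.1 and 44.1 CPM at 0.01 µM, 44.3, 43.6 and 54.0 at 0.1 µM, 47.0, 45.5 and 44.2 at 1 µM, 38.1, 40.8 and 46.7 at 10 µM and 44.7, 45.3 and 39.5 CPM at 100 µM. All 15 of these libraries lay below the lowest untreated value and above the highest value at 1000 µM, so that MVK showed 3 separate levels. Its change was -0.52 ± 0.11 at 0.01 µM (adjusted p 0.039), -0.53 ± 0.11 at 10 µM (adjusted p 0.0053) and -0.49 ± 0.11 at 100 µM (adjusted p 0.025). PMVK and MVD, the next enzymes, spread more. PMVK held 10.9, 17.6 and 19.2 CPM at 0.01 µM, 19.8, 17.0 and 27.4 at 0.1 µM, 22.5, 15.1 and 16.8 at 1 µM, 14.0, 14.5 and 17.9 at 10 µM and 17.0, 16.8 and 14.5 CPM at 100 µM, and it fell at 10 µM by 0.73 on the log2 scale (adjusted p 0.024). MVD held 42.0, 77.9 and 83.8 CPM at 0.01 µM, 77.1, 72.8 and 94.6 at 0.1 µM, 76.7, 73.1 and 86.6 at 1 µM, 76.0, 72.3 and 75.6 at 10 µM and 82.7, 81.8 and 78.6 CPM at 100 µM, and passed at none of these doses. The lowest MVD value of these doses belongs to 0.01 µM replicate 1, the library that stood apart.

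Libraries of HMGCS1 and IDI1 overlapped the untreated ones at the lower doses. HMGCS1 held 133, 103 and 106 CPM at 0.01 µM, 123, 114 and 105 at 0.1 µM, 129, 112 and 88.1 at 1 µM, 101, 101 and 121 at 10 µM and 129, 118 and 116 CPM at 100 µM. At 100 µM its log2 difference from untreated cells was 0.04, with a 95% interval from -0.25 to 0.33. Its libraries at every dose up to 100 µM overlapped the untreated ones, and those at 1000 µM lay below all other 18. IDI1 held 150.3, 109.6 and 113 CPM at 0.01 µM, 115, 99.3 and 119.6 at 0.1 µM, 119, 104 and 135 at 1 µM, 125, 119 and 115 at 10 µM and 143, 129.5 and 127 CPM at 100 µM. At 100 µM its log2 difference was 0.09, with a 95% interval from -0.18 to 0.35. Both genes therefore showed a single low level, at 1000 µM, and whether this course differs from that of MVK was not tested.

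FDPS and FDFT1, which make and use farnesyl diphosphate, were below every untreated library at each dose, as MVK was. FDPS ran from 149.7 to 194 CPM over the 15 libraries from 0.01 to 100 µM, and it fell at 10 µM by 0.38 on the log2 scale (adjusted p 0.0088). FDFT1 ran from 193 to 232 CPM over the same libraries, and it fell at 10 µM by 0.31 (adjusted p 0.017). ACAT2 ran from 134 to 225 CPM there and overlapped the untreated libraries, and at 10 µM its difference of -0.43 ± 0.16 had an adjusted p of 0.059. GGPS1 had its lowest mean at 10 µM rather than at 1000 µM, but libraries of these 2 doses overlapped and their difference was not tested. Its libraries held 19.3, 7.29 and 5.92 CPM at 0.01 µM, 9.27, 7.43 and 11.9 at 0.1 µM, 10.5, 6.93 and 5.82 at 1 µM, 4.64, 5.06 and 7.82 at 10 µM and 8.57, 8.02 and 6.96 CPM at 100 µM. The change of GGPS1 at 10 µM was -1.13 ± 0.37, with an adjusted p of 0.035. With 1 compared library left out, this change did not pass in 5 of 6 fits, with an adjusted p of up to 0.14. The highest GGPS1 value of all 21 libraries again belongs to 0.01 µM replicate 1, the library that stood apart.

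To leave the untreated libraries out of the contrast, 1000 µM was also compared with 100 µM and with the mean of 0.01, 0.1, 1 and 10 µM. Against 100 µM, 6 of 9 members fell (MVK, IDI1, HMGCS1, MVD, FDFT1 and FDPS), where 14.7% of all genes tested passed and 6.55% were lower. The largest of these falls was -0.96 ± 0.12 for MVK (adjusted p 2.4e-05), followed by -0.71 ± 0.13 for IDI1 (adjusted p 0.0011) and -0.68 ± 0.14 for HMGCS1 (adjusted p 0.0032). In this contrast IDI1 and HMGCS1 fell by more than MVD at -0.63, FDFT1 at -0.54 and FDPS at -0.35, as point values whose differences were not tested. PMVK at -0.55 and ACAT2 at -0.37 did not pass, nor did GGPS1, whose difference of 0.41 pointed up. Against the mean of the 4 lower doses, 7 members fell, the same 6 and PMVK, where 30.7% of all genes tested passed and 14.4% were lower. The fall of MVK was -1.0 ± 0.10 there (adjusted p 4.3e-07) and that of FDFT1 -0.50 ± 0.07 (adjusted p 3.2e-05). Without 1000 µM replicate 3 the count of members was 4, and these were MVK, HMGCS1, IDI1 and FDFT1. Both contrasts rest on the same 3 libraries at 1000 µM.

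Over the whole dose series, a slope per dose step (the rank of the doses, 0 to 6) passed for 6 members, all downward, where 29% of all genes tested passed and 14.5% sloped down. The steepest slopes were -0.15 log2 per step for MVK (adjusted p 0.0012) and -0.15 for PMVK (adjusted p 0.0027), and HMGCS1, IDI1 and GGPS1 did not pass. Without the 3 libraries at 1000 µM no member's slope passed, where 1051 of 17329 genes did. In the 18 treated libraries alone that of MVK did, as 1 of 9, where 1984 of 17308 genes did. That share is like that of all genes, so this count shows nothing particular to the members. When the 7 groups were tested together, 7 members passed, all but ACAT2 and GGPS1, where 28.1% of all genes tested did. Without the libraries at 1000 µM no member passed this joint test, but only 159 of 17329 genes did, so few calls were to be had. In the 18 treated libraries alone 4 members passed it, where 2211 of 17308 genes did.

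Guanine and cytosine (GC) content of transcripts moved with part of these values. The median GC of a gene's GENCODE v29 transcripts was 63.9% for MVD, 60.5% for MVK and 59.5% for PMVK, against 50.3% for the median gene tested, and 41.8% for HMGCS1, 42.5% for IDI1 and 41.4% for GGPS1. The 3 members with the largest falls at 1000 µM were thus the 3 richest in GC. A smooth trend of log2 level on GC and length was fitted in each library, over the 89.8% of tested genes with both values. At the GC and length of MVD it stood at 0.18, 0.23 and 0.13 in the untreated libraries, at -0.02, -0.30 and -0.38 at 1000 µM, and at -0.47 in 0.01 µM replicate 1. The trend was therefore low in 2 of the 3 top-dose libraries and lowest in the library that stood apart. It also varied within a lower dose: at 1 µM it stood at -0.11 in replicate 1 and at 0.25 in replicate 3, the highest of all 21 libraries. With the trend taken out, MVD changed by -0.57 at 1000 µM (adjusted p 0.00016), MVK by -1.18 (adjusted p 2e-07) and PMVK by -0.96 (adjusted p 0.00081). HMGCS1 changed by -0.81 (adjusted p 6.7e-07), IDI1 by -0.77 (adjusted p 4e-05) and FDFT1 by -0.81 (adjusted p 3.4e-07). ACAT2 changed by -0.66 and FDPS by -0.48, while GGPS1 at -0.50 did not pass (adjusted p 0.19). The same 8 members fell with and without the correction, but their order did not hold, since MVD went from the third largest fall to the smallest but FDPS and GGPS1. At 0.01 µM the fall of MVK did not pass after the correction and that of MVD did, so that the count of members stayed at 1. The correction was added after the data were seen.

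**Figure D5:**
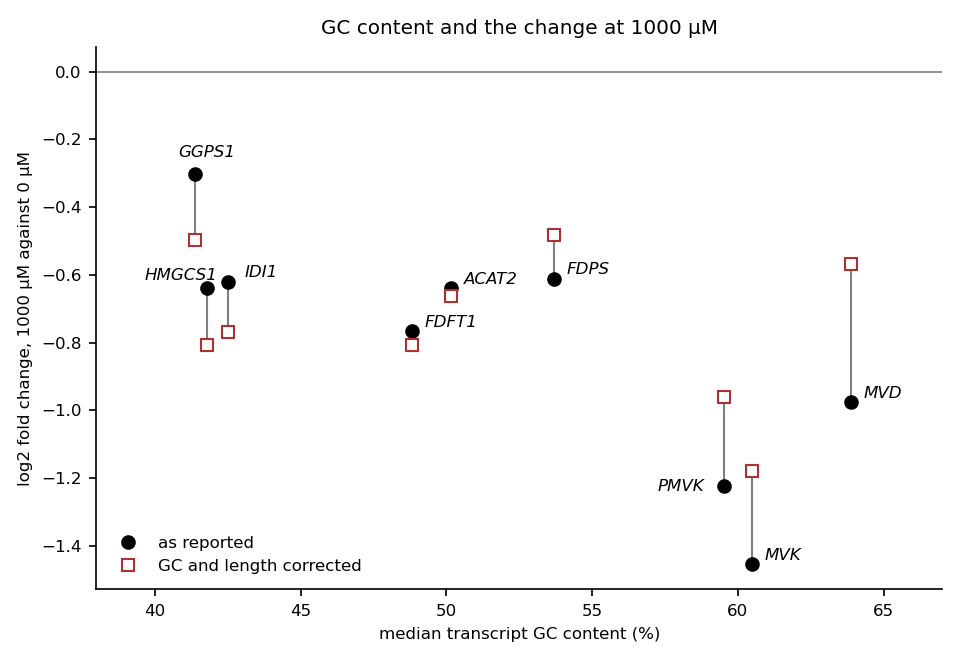
Log2 fold change at 1000 µM against 0 µM for each member, plotted against the GC content of its transcripts in percent, as fitted on the counts and after the GC and length correction. Circles show MVK, PMVK and MVD low at the right of the axis, and the squares show MVD moved up and HMGCS1 and IDI1 moved down.

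Several members share exon sequence with a neighbour, and since the strand setting of the counting is not given, their reads cannot be told apart there. In GENCODE v29, ACAT2 shares 1458 bases with SOD2-OT1, 1141 with SOD2 and 397 with TCP1, all on the opposite strand. Also on the opposite strand, MVK shares 306 bases with MMAB, FDPS 693 with RUSC1-AS1 and IDI1 643 with IDI2-AS1. HMGCS1 shares 703 with AC114947.2 and FDFT1 217 with AC069185.1, again on the opposite strand. GGPS1 shares 1422 bases with TBCE on its own strand and 138 with ARID4B on the other, and PMVK and MVD share none. MMAB, an enzyme of vitamin B12 metabolism whose gene lies head to head with MVK, went from 46.8 ± 2.99 to 23.3 ± 3.27 CPM at 1000 µM, a change of -1.01 ± 0.15 (adjusted p 6e-05). RUSC1-AS1 went from 3.14 ± 0.256 to 1.74 ± 0.199 CPM, a change of -0.86 ± 0.17 (adjusted p 0.00083). TCP1, a chaperonin subunit, changed by -0.26 ± 0.10 (adjusted p 0.046). Beside GGPS1, TBCE at -0.09 did not pass (adjusted p 0.42), while ARID4B rose by 0.66 ± 0.11 (adjusted p 0.00019). PMVK and MVD, which share no exon, fell as given above, and the part of shared reads in the other members' values was not tested.

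Other genes of the pathway were read from lists. Of 11 enzymes from squalene to cholesterol, 8 fell and 1 rose at 1000 µM, with a median log2 fold change of -0.60, where 41.2% of all genes tested passed and 20.6% were lower. Those with the smallest p-values were TM7SF2, a sterol C14 reductase, at -1.16 ± 0.11 (adjusted p 9.2e-07), EBP, a sterol isomerase, at -0.90 ± 0.12 (adjusted p 2.2e-05), and NSDHL, which takes part in removing the C4 methyl groups, at -0.68 ± 0.10 (adjusted p 4.2e-05). SC5D, the single riser, is named after its value was seen, at 0.45 ± 0.15 (adjusted p 0.026). Against 100 µM, 8 of these 11 fell and none rose, with a median of -0.46, where 14.7% of all genes tested passed and 6.55% were lower. The later enzymes thus had counts and a median near those of the mevalonate arm, and the difference between the lists was not tested.

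Of 12 genes that control sterol synthesis, 11 were tested, of which 2 rose and 1 fell at 1000 µM, with a median of 0.01. These 3 of 11 are a smaller share than the 41.2% of all genes tested that passed, so the count shows nothing particular to the list, and its genes are given as single values. RNF145, a sterol-responsive ubiquitin ligase, rose from 33.7 ± 2.05 to 55.1 ± 3.08 CPM, a change of 0.71 ± 0.07 (adjusted p 1.4e-06). MBTPS1, the site-1 protease that cleaves SREBPs, rose by 0.42 ± 0.07 (adjusted p 0.0002). SREBF1, which encodes SREBP1, fell from 121 ± 4.31 to 74.0 ± 12.3 CPM, a change of -0.70 ± 0.15 (adjusted p 0.00099). SREBF2, which encodes SREBP2, is named outside the rule for its textbook role: it held 166 ± 10.4 CPM without caffeine and 153 ± 11.5 CPM at 1000 µM, with a log2 difference of -0.12, a 95% interval from -0.31 to 0.08 and an adjusted p of 0.34. INSIG1 was not analysed here. The mRNA of SREBF2 says nothing of the cleavage of its protein, which was not measured.

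Genes on either side of the arm were read in the same way, and in none of the 3 lists was the share that passed above the 41.2% of all genes tested. Of 5 genes of acetyl-CoA supply, 2 fell and none rose at 1000 µM, with a median of -0.20. SLC25A1, the mitochondrial citrate carrier, changed by -0.89 ± 0.11 (adjusted p 6.7e-06) and ACSS2, which makes acetyl-CoA from acetate, by -0.45 ± 0.08 (adjusted p 0.00025), while ACLY, ATP citrate lyase, at -0.20 did not pass (adjusted p 0.11). Of 14 users of farnesyl or geranylgeranyl diphosphate, 4 fell and 1 rose, with a median of -0.18, and the count of 5 was 2 without 1000 µM replicate 3 and 3 without untreated replicate 2 or 3 or without 1000 µM replicate 2. FNTA, a subunit shared by enzymes that attach farnesyl and geranylgeranyl groups to proteins, rose by 0.67 ± 0.10 (adjusted p 7.1e-05), RCE1, the protease that trims prenylated proteins, changed by -0.43 ± 0.14 (adjusted p 0.019), and TRIT1, which modifies tRNA with an isopentenyl group, by -0.34 ± 0.11 (adjusted p 0.021). The LXR list holds targets of the LXR sterol receptors and also the receptor genes themselves. Of its 5 genes, 4 were tested, 1 rose and none fell, with a median of 0.03. The riser was ABCA1, a cholesterol exporter, at 0.49 ± 0.18 (adjusted p 0.034), and it did not pass without untreated replicate 1 or 2 or without 1000 µM replicate 2 or 3. ABCA1 stood about as high at 4 lower doses, with log2 differences of 0.47, 0.55, 0.44 and 0.52 at 0.01, 0.1, 1 and 10 µM. Of these the difference at 10 µM passed (adjusted p 0.045). At 100 µM the difference was 0.21 and did not pass.

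Isozymes of ACAT2 and IDI1 were read in the same libraries. ACAT1, the mitochondrial thiolase, held 124 ± 9.80 CPM without caffeine and 124 ± 19.2 CPM at 1000 µM, a log2 difference of 0.01 with a 95% interval from -0.26 to 0.28. That interval does not reach the -0.64 of ACAT2, although the difference between the genes was not tested. IDI2, the isozyme of IDI1, had 0 counts in every library.

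Likeness was measured as Pearson's r over the 7 group means, with r computed against the mean profile of the other members and given as a description of points that share the untreated group and the library scaling. FDPS was most like the rest with r = 0.99, then FDFT1 with 0.97, MVK with 0.96, ACAT2 with 0.93, PMVK with 0.93 and MVD with 0.92. HMGCS1 at 0.86 and IDI1 at 0.75 were less like the others, and GGPS1 at 0.16 was not like them. Outside the list, the 5 genes most like the mean profile of all members were PRR13, CDKN2AIPNL, SAMM50, NAA10 and TACO1, with r from 0.992 to 0.995. SAMM50 takes part in assembling proteins into the mitochondrial outer membrane, NAA10 is an N-terminal acetyltransferase and TACO1 supports translation in mitochondria. At 1000 µM the 5 genes changed by -0.79, -0.94, -0.53, -0.72 and -0.62 on the log2 scale in the order first named. They were picked for likeness over group means that include 1000 µM, so a fall at this dose was built into the choice.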

How the data were processed

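Messenger RNA was selected with poly(dT) beads, per the labels' protocols. The authors deposited whole-number read counts per gene, not normalized. HISAT2, DESeq2 and GRCh38 are named in the submitters' processing notes without role or version, and the counting program, annotation and strand setting are not given in the sources used here. Of 42 columns of per-sample counts in the table, 21 matched the samples and 21 were not used. The labels mention no molecular identifiers, and the floors take in counting error alone. Replicate libraries differed by a chi-square of 5.08 to 186 per gene, so none was a copy.

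The counts were fitted with edgeR 4.0.16 (R 4.3.3): quasi-likelihood test, TMM scaling, filterByExpr with a minimum count of 10, and 1 fit of 21 libraries in 7 groups with 14 residual degrees of freedom. Benjamini-Hochberg adjustment ran over 17468 genes, and the threshold was 0.05. Intervals are 95% from that fit. The same script was tested on simulated counts. Alternatives were DESeq2 1.42.0, RLE scaling, other filters, a replicate block, subsets of libraries, leaving out each compared library in turn, and a GC and length correction by a loess curve in each library, used as offsets. All 9 members are named, and of each other list at most the 3 genes with the smallest p at 1000 µM, besides isozymes, markers, genes sharing exons, the 5 most alike genes and the exceptions given in the text. The members and lists were chosen with earlier results of these data known. 1 gene of the isozyme list is not reported here. Promoters came from RefSeq (GRCh38.p14) and gene positions from GENCODE v29.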

Additional observations from a re-analysis of the deposited data

How the results depend on the processing

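At 1000 µM the count of members that fell was 8 in each alternative run, leaving out each of the 6 compared libraries in turn included. At 0.01 µM the count of 1 became 5 with DESeq2, 2 with no filter, 2 with at least 10 counts in every sample, 0 with the 2 groups alone and 0 with the replicate block. After DESeq2, whose total is given below, these runs called 747 of 34619, 1301 of 14388, 2 of 16181 and 0 of 17468 genes over all, in turn. At 1 µM DESeq2 called 3 members, at 100 µM 3, and the 2 groups alone gave 6 at 100 µM. At 10 µM the count of 5 was 4 with no filter and 6 with at least 10 counts in every sample. It was 7 with DESeq2, with the 2 groups alone and after the GC correction, where 4394 of 15818, 5325 of 16298 and 4817 of 17468 genes passed over all, in turn. The slope count of 6 was 1 in the 18 treated libraries and 0 without 1000 µM, where 1984 of 17308 and 1051 of 17329 genes passed over all. The count of 7 over all groups was 4 and 0, where 2211 of 17308 and 159 of 17329 genes passed. Leaving out 1 compared library gave member counts, by dose from 0.01 to 100 µM, of 0 to 2, 0 to 2, 0 to 1, 2 to 6 and 0 to 1, and counts of 4 to 6 against 100 µM, 4 to 8 against the mean of lower doses, 4 to 7 for the slope and 5 to 8 over all groups. The 5 prenyl users called at 1000 µM were 2 with no filter and 2 to 6 with 1 library left out, and the 1 LXR gene was 0 to 1. Over all genes, DESeq2 called 2193 against 864 at 0.01 µM, 528 and 1410 against 0 at 0.1 and 1 µM, and 2079 against 1051 at 100 µM, where the 2 groups alone gave 4015. Apart from the fits with 1 library left out, signs turned only near 0: IDI1 at 0.01 µM (-0.01) was 0.0076 with DESeq2, 0.0079 with RLE scaling, 0.0020 with no filter, 0.0046 with at least 10 counts and 0.0079 with the 2 groups alone, the IDI1 slope without 1000 µM was 0.011, and HMGCS1 at 100 µM was -0.018 after the GC correction. With 1 library left out, the log2 difference of HMGCS1 from 0 µM had the limits -0.17 and 0.018 at 0.01 µM, -0.12 and 0.0065 at 0.1 µM, -0.23 and 0.035 at 1 µM, and -0.034 and 0.082 at 100 µM. That of IDI1 had the limits -0.17 and 0.084 at 0.01 µM, -0.17 and 0.034 at 1 µM, -0.16 and 0.029 at 10 µM, and -0.0041 and 0.19 at 100 µM. That of GGPS1 had the limits -0.96 and 0.075 at 0.01 µM, against -0.25 with all libraries. The causes were not tested. Same-numbered libraries share only a number: their deviations correlated with a mean of -0.050 over 63 pairs, 25 of them over 0.1, and 4 of 21 libraries correlated best with their own number, and the replicate block changed no other count of members by over 1.5 times. With 3 libraries a dose, differences of GGPS1, at about 10 CPM, were the least precise.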
